A study of Rattus norvegicus with 22 samples.

Results

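The 10 livers of rats given GSK932121A were divided by their immediate early gene transcripts into a high set of 6 (livers 13, 14, 16, 18, 22 and 23) and a low set of 4 (livers 17, 20, 21 and 24). The sets were chosen from measured values of these same arrays: the mean log2 value of the immediate early genes. Every value given for high against low livers is therefore a description without a test. The series holds 22 Affymetrix arrays, 1 per liver, and the 12 vehicle livers (numbers 1 to 12) serve as reference levels. All rats were female Crl:CD(SD), an outbred stock, 12 weeks old by the sample labels. GSK932121A blocks complex III of the respiratory chain, according to the title of the series, and was given at 50 mg/kg in 1 intraperitoneal injection of a suspension at 10 mL/kg, a dose known from the study's earlier work to be acutely toxic. Vehicle rats received the same formulation without the compound. Treated livers were taken after 5 hours, no time is given for vehicle, and the median lobe was snap frozen. Of 12 rats dosed, the submitters had left out 2 with low plasma exposure, and the exposure of the other 10 was not analysed here.

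Immediate early genes are transcribed within minutes of a stimulus without the need for new protein, and many encode transcription factors such as Jun, Fos, Egr1, Atf3 and the Nr4a nuclear receptors. Their transcripts are short-lived, so their level reports recent signalling through kinase, calcium and stress pathways. Later targets include growth arrest genes of the Gadd45 family, dual-specificity phosphatases that dampen the same kinases, and genes of the integrated stress response, in which ATF4 induces amino acid transporters and stress hormones when translation is slowed. Complex III passes electrons from ubiquinol to cytochrome c.

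Among the 43 immediate early genes measured, the mean log2 value minus the vehicle mean was 0.26, 0.37, 0.28 and 0.12 in livers 17, 20, 21 and 24. In livers 13, 14, 16, 18, 22 and 23 it was 0.89, 1.52, 0.99, 1.59, 1.16 and 1.03. Vehicle livers ran from -0.32 to 0.21, so that 3 low livers lay above every vehicle liver and liver 24 lay inside the vehicle range. The livers nearest the border were 20 and 13, with a gap of 0.52 between them. Of the 43 genes, 17 had no overlap between the sets and 26 overlapped. Atf3, a stress-induced transcription factor, had log2 values of 5.12, 5.58, 5.78 and 5.12 in livers 17, 20, 21 and 24, of 8.21 to 10.58 (median 9.20) in the high livers and of 4.09 to 5.00 (median 4.74) in the vehicle livers. Jun, an AP-1 subunit, had 7.43, 7.78, 7.91 and 7.67 in livers 17, 20, 21 and 24, against 9.59 to 11.03 (median 10.47) in the high set and 5.75 to 7.73 (median 7.33) after vehicle. Nr4a1, an orphan nuclear receptor, had 5.61, 5.11, 5.43 and 5.02 in livers 17, 20, 21 and 24, against 6.63 to 9.13 (median 8.53) and 4.12 to 4.91 (median 4.67). For Atf3 and Nr4a1 even the low livers lay above all vehicle livers. Fosb, Klf4, Egr3 and Arc overlapped between the sets. These values chose the sets and are given to show their size.

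**Figure D1:**
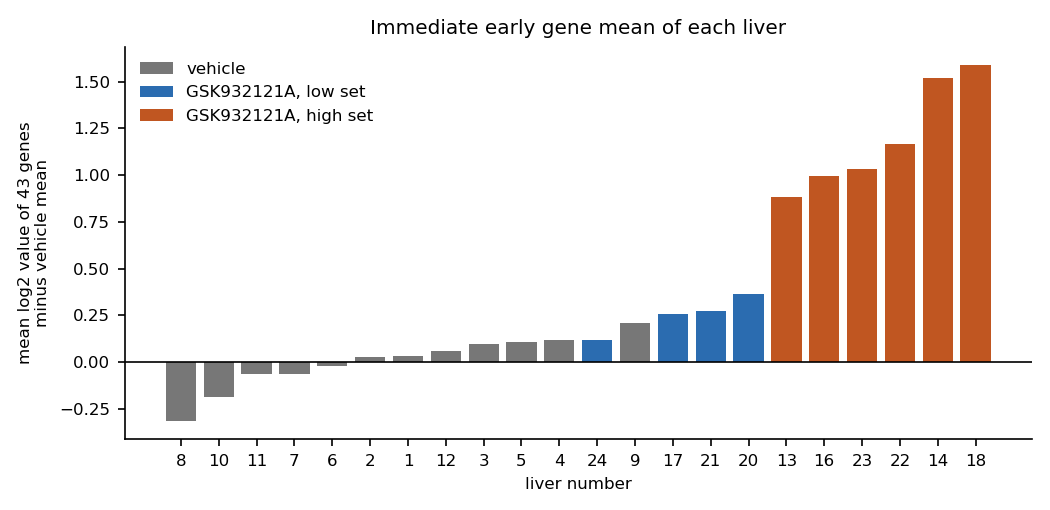
Bars show, for each of the 22 livers, the mean log2 value of 43 immediate early genes minus the mean of the vehicle livers, sorted from lowest to highest. The 4 low livers stand between 0.12 and 0.37, next to the highest vehicle livers, and the 6 high livers between 0.89 and 1.59.

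The arrays themselves were alike: array medians were 4.75 to 4.85 in the high set and 4.78 to 4.83 in the low set. The hepatocyte markers Alb, Ttr and Serpina1 overlapped between the sets, with means over the 3 genes of 11.51 to 11.60 in the high and 11.60 to 11.64 in the low livers on the log2 scale. Across 8 marker lists for other cell types, 114 genes were measured. Of these, 1 was higher in the high set without overlap (Elane, a neutrophil elastase) and 1 lower (Plin1, a fat droplet protein). Over all genes other than immediate early genes the shares were 1.87% and 1.81%, so these counts are not above the background. None of the 114 was both without overlap and 2-fold apart; Lum, a matrix proteoglycan gene, had overlapping sets and a difference of -1.21. In a piece of whole liver, fewer cells of a type and less RNA per cell cannot be told apart.

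Over the 18123 genes other than immediate early genes, the median difference between the sets (high minus low) was -0.01 on the log2 scale, and the central 90% of genes lay between -0.30 and 0.30. A total of 338 genes (1.87%) had all 6 high livers above all 4 low livers, and 328 (1.81%) had the reverse. Large differences ran mostly upwards: 55 genes (0.303%) were without overlap and at least 2-fold higher in the high set, against 5 (0.0276%) at least 2-fold lower. All 6 high livers lay above every vehicle liver for 52 of these 55 genes, where 2.12% of all genes did so. All 4 low livers did so for 13 of the 55, where 0.662% of all genes did so. The 55 were picked for high livers above low livers. Their counts against vehicle follow in part from that choice and test nothing. In limma's comparison of all treated with all vehicle livers, 47 of the 55 rose (5.31% of all genes rose and 7.05% fell); that comparison contains the high livers and is no separate support for the split. The other 8, Arrdc3, Cry2, Dusp10, H1f5, Hist1h3b, Il1a, Phlda1 and St8sia1, did not pass. Several of the 55, such as Gadd45b, Nfkbiz, Trib1, Sik1 and Dusp8, are known as rapidly induced genes themselves and resemble those that chose the sets.

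**Figure D2:**
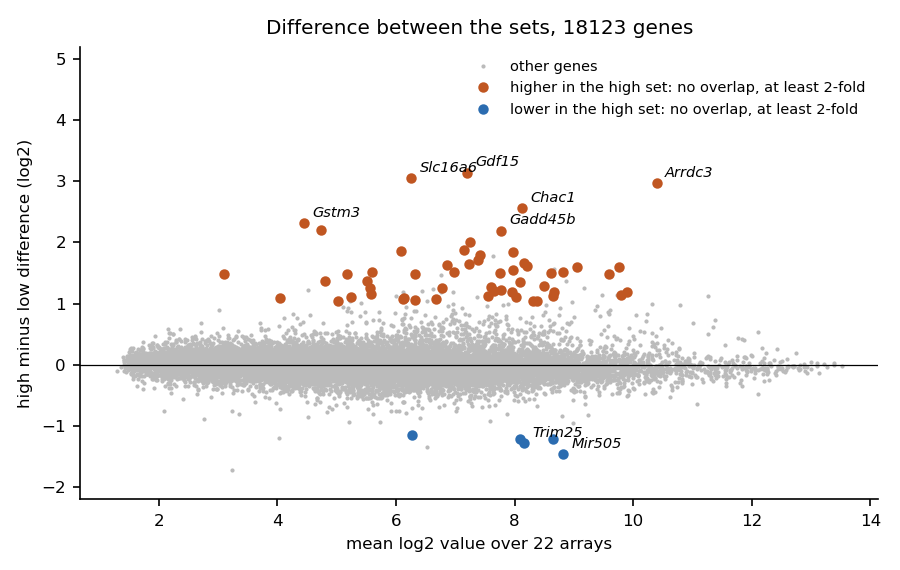
Each point is 1 of 18123 genes, with its mean log2 value over 22 arrays on the horizontal axis and the difference between the mean of 6 high and 4 low livers (log2) on the vertical axis. The 55 genes marked as higher spread over the range of levels and reach 3.14, whereas the 5 marked as lower reach -1.46.

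The 55 genes were grouped by role after their values were seen. In the stress and growth arrest group all 8 members rose in limma, and their differences between the sets ran from 1.05 (Nupr1) to 3.14 (Gdf15, the highest of the 55). Gdf15, a circulating stress hormone, had log2 values of 5.85, 6.53, 6.42 and 6.54 in livers 17, 20, 21 and 24, inside the vehicle range of 5.40 to 7.55 (median 6.33). In the high livers it had 8.19 to 10.78 (median 9.36), a mean 8.84-fold above the low set. No low liver lay above the vehicle livers for Gdf15, and every high liver did. Chac1, which degrades glutathione and is a target of ATF4, behaved otherwise: all treated livers were above vehicle, in 2 steps. Its values were 9.38, 8.26, 9.53 and 7.20 in livers 17, 20, 21 and 24, 10.83 to 11.34 (median 11.16) in the high set and 6.08 to 6.94 (median 6.48) in vehicle livers. The high livers sat 5.88-fold above the low livers, within a treated rise of 3.67 ± 0.38 on the log2 scale (limma estimate ± SE, adjusted p = 3.61e-07). Slc1a4, a transporter of alanine, serine and cysteine, had 7.70, 7.52, 8.33 and 6.46 in livers 17, 20, 21 and 24, 9.04 to 10.24 (median 9.46) in the high set and 5.69 to 6.46 (median 6.02) after vehicle. Liver 24 equalled the highest vehicle liver at this precision, and the other low livers lay between the vehicle and the high livers.

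The integrated stress response is carried in part by a composite site for ATF4 and C/EBP proteins, and the promoters of Chac1 and Slc1a4 are shown because both hold its letters and both were among the 15 highest differences. Inhbe, an activin subunit made in hepatocytes, is shown beside them because it holds the same letters and went the other way. Each sequence is the 250 bases before the start site, 5′ to 3′ on the gene's strand, from RefSeq on GRCr8, with matches to TGATGNAA on either strand in capitals. Chac1 is at chr3:126795881-126796130 (+), Slc1a4 at chr14:98761563-98761812 (-) and Inhbe at chr7:65064520-65064769 (-).
Chac1: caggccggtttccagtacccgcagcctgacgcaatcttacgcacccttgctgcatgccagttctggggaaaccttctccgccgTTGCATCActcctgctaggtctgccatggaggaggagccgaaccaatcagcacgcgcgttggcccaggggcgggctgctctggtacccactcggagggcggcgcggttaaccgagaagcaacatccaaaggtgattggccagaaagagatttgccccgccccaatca
Slc1a4: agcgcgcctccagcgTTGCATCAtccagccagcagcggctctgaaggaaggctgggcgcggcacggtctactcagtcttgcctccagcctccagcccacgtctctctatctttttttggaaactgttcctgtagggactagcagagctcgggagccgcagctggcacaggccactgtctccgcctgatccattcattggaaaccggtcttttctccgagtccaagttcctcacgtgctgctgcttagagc
Inhbe: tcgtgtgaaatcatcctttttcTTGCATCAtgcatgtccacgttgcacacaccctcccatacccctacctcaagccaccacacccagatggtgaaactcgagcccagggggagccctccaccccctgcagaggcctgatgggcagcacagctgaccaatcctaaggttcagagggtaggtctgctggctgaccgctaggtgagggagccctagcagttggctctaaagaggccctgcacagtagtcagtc
All 3 carry the same 8 letters, TTGCATCA, which is the motif on the reverse strand.

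Promoters were searched from 250 bases before to 50 after the start site, on both strands, and 12 of the 15 highest and 12 of the 15 lowest genes had an entry. Percentages are over all promoter entries, whether or not the gene was measured, whereas named genes and list members were counted once each. TGATGNAA stood in 3.98% of 33469 promoters, in 2 of the 12 highest and in 1 of the 12 lowest. The AP-1 motif TGANTCA (7.33% of promoters) and the cyclic AMP response element TGACGTCA (1.83%) were in none of either 12. TGACG, the shorter core that lies inside the latter, was in 5 of the 12 highest (Chac1, Etnk1, Gadd45a, Gadd45b and Tsc22d2) and 3 of the 12 lowest, where 21.2% of promoters hold it. The E-box CACGTG (6.42%) was in Gadd45b and Slc1a4 among the highest and Trim25 among the lowest. A match describes letters in this window and nothing about a factor's binding.

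The 3 Gadd45 genes, which encode small proteins that bind stress kinases and slow the cell cycle, were all higher in the high set. Gadd45b had 9.08, 8.59, 9.31 and 6.68 in livers 17, 20, 21 and 24, against 10.27 to 11.09 (median 10.54) in the high livers and 5.22 to 7.08 (median 5.99) in vehicle livers, a 4.58-fold gap between the sets. Liver 24 stayed inside the vehicle range for Gadd45b while livers 17, 20 and 21 lay far above it. Gadd45a had 6.90, 7.92, 6.87 and 6.48 in livers 17, 20, 21 and 24 and 8.07 to 9.55 (median 8.45) in the high set, with vehicle at 6.23 to 7.08 (median 6.44); only liver 20 of the low set was above all vehicle livers. Gadd45g had 8.49, 8.90, 8.94 and 7.79 in livers 17, 20, 21 and 24 and 9.57 to 10.45 (median 10.13) in the high set, with vehicle at 5.98 to 7.71 (median 6.62), so that all 10 treated livers were above vehicle. Nupr1, a stress-induced chromatin protein, and Ppp1r15a, the phosphatase subunit GADD34 that restores translation, were 2.07-fold and 2.12-fold higher in the high set.

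Of the 42 measured members of the integrated stress response list, 6 were higher in the high set without overlap (1.87% of all genes were), 1 was lower (Atf5, at -0.51) and 35 overlapped, with a median difference of 0.03 beside -0.01 over all genes. The list mean minus vehicle was 0.48 to 0.71 in the high livers and 0.23 to 0.37 in the low livers, both above the highest vehicle liver at 0.13. Its split rests on few members: 5 differed 2-fold (Gdf15, Chac1, Slc1a4, Ppp1r15a and Nupr1). Ddit3, the transcription factor CHOP, was higher without overlap but by 0.57 only. Several textbook ATF4 targets did not follow. Asns, asparagine synthetase, had 5.36, 6.35, 5.73 and 5.53 in livers 17, 20, 21 and 24 and 5.37 to 5.85 (median 5.51) in the high set, with vehicle at 4.63 to 5.88 (median 5.33). Trib3, a pseudokinase, and Mthfd2, a mitochondrial folate enzyme, had differences of 0.10 and -0.12, with overlap. Fgf21, the other stress hormone of the list, had 6.93, 6.71, 5.79 and 6.10 in livers 17, 20, 21 and 24 and 5.48 to 6.16 (median 5.93) in the high set, so the 2 highest treated livers for Fgf21 were low livers 17 and 20; its treated mean did not pass limma (adjusted p = 0.123). Of the 37 list members with a promoter entry, 10 held TGATGNAA (Aars1, Chac1, Fgf21, Jdp2, Nars1, Nupr1, Pycr1, Slc1a4, Slc7a1 and Trib3), beside 3.98% of all promoter entries. The list was drawn up to include ATF4 targets, and this count does not bear on high against low livers.

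Signalling genes formed the next group, 9 genes with differences of 1.07 to 1.86, of which 7 rose in limma. Dusp8, a phosphatase of stress kinases, had 6.07, 5.92, 6.27 and 5.70 in livers 17, 20, 21 and 24, 6.92 to 8.86 (median 7.74) in the high set and 4.94 to 5.46 (median 5.22) after vehicle. Every treated liver was above vehicle for Dusp8, and the high livers were 3.64-fold above the low. Trib1, a pseudokinase scaffold that steers C/EBP proteins to degradation, had 7.01, 7.48, 8.05 and 7.01 in livers 17, 20, 21 and 24, 8.64 to 9.88 (median 8.93) in the high set and 5.83 to 7.05 (median 6.58) in vehicle livers. Livers 17 and 24 were inside the vehicle range for Trib1. Sik1, a kinase induced by cyclic AMP, had 10.04, 9.35, 10.48 and 8.90 in livers 17, 20, 21 and 24, 10.94 to 11.42 (median 11.34) in the high set and 6.99 to 8.47 (median 7.74) after vehicle, so all 10 treated livers were above vehicle. Irs2, the insulin receptor substrate that hepatocytes induce in fasting, had 9.27, 8.51, 9.59 and 8.43 in livers 17, 20, 21 and 24 and 10.18 to 10.69 (median 10.45) in the high set, all above the vehicle range of 7.16 to 8.02. Sgk1, a glucocorticoid- and serum-induced kinase, Ppp1r3g, a glycogen-targeting subunit of protein phosphatase 1, and Rgs1, a G protein regulator, were 2.17-fold, 2.81-fold and 2.79-fold higher. Dusp10 and Phlda1 had all 4 low livers within the vehicle range and did not pass limma.

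In the 10 transcription and clock genes, the differences ran from 1.04 to 1.87, and all 6 high livers lay above vehicle for all 10. Nfkbiz, an inducible co-regulator of NF-kB, had 6.12, 7.20, 6.74 and 6.81 in livers 17, 20, 21 and 24, 7.66 to 9.05 (median 8.69) in the high set and 6.07 to 6.91 (median 6.58) in vehicle livers. Only liver 20 of the low set was above the vehicle range. Cry2, a repressor of the circadian clock, had 7.20, 7.18, 7.78 and 7.91 in livers 17, 20, 21 and 24, against 8.86 to 9.51 (median 9.18) in the high set and 7.59 to 8.26 (median 7.85) after vehicle. Livers 17 and 20 were below every vehicle liver for Cry2 and all high livers were above, so its treated mean did not pass limma (adjusted p = 0.0898). Cited2, a competitor for the coactivator CBP, had 7.60, 7.70, 8.20 and 7.22 in livers 17, 20, 21 and 24, 8.48 to 9.67 (median 9.06) in the high set and 7.47 to 8.01 (median 7.79) after vehicle. Noct, a rhythmic nicotinamide dinucleotide phosphatase, was above vehicle in every treated liver except 20, with 8.94, 7.73, 8.95 and 7.87 in livers 17, 20, 21 and 24 and 9.18 to 9.85 (median 9.62) in the high set against 5.53 to 7.79 (median 6.32). Tsc22d2, Ets2, Foxo3, Bach1, Tgif1 and Ell2 completed the group, at 3.58-fold, 2.28-fold, 2.15-fold, 2.05-fold, 2.40-fold and 2.27-fold.

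Secreted proteins included both sides of interleukin-1 signalling. Il1a, the cytokine, had 7.11, 7.61, 7.12 and 6.69 in livers 17, 20, 21 and 24, of which livers 17, 21 and 24 were below every vehicle liver (7.33 to 7.90 (median 7.51)). In the high set it had 8.02 to 8.93 (median 8.76), all above the vehicle range. Il1rn, the receptor antagonist, had 9.79, 9.50, 9.58 and 8.12 in livers 17, 20, 21 and 24 and 10.32 to 11.25 (median 10.67) in the high set against 6.86 to 8.30 (median 7.79), and passed limma at 2.44 ± 0.27 (adjusted p = 1.01e-06). Only liver 24 was inside the vehicle range for Il1rn. Cxcl2, a neutrophil-attracting chemokine, had 5.43 to 8.03 in the high set against 4.74 to 5.22 in the low set, with liver 14 alone at the top; its call in limma (adjusted p = 0.0435) was lost in 15 of the alternative settings, with an adjusted p of up to 0.0805. Igfbp1, an insulin-repressed binding protein for insulin-like growth factors, had 10.30, 10.09, 10.47 and 9.57 in livers 17, 20, 21 and 24 and 10.98 to 11.60 (median 11.20) in the high set, against 7.49 to 9.71 (median 9.09). Adamts1, a matrix protease, was 2.41-fold higher in the high set.

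**Figure D3:**
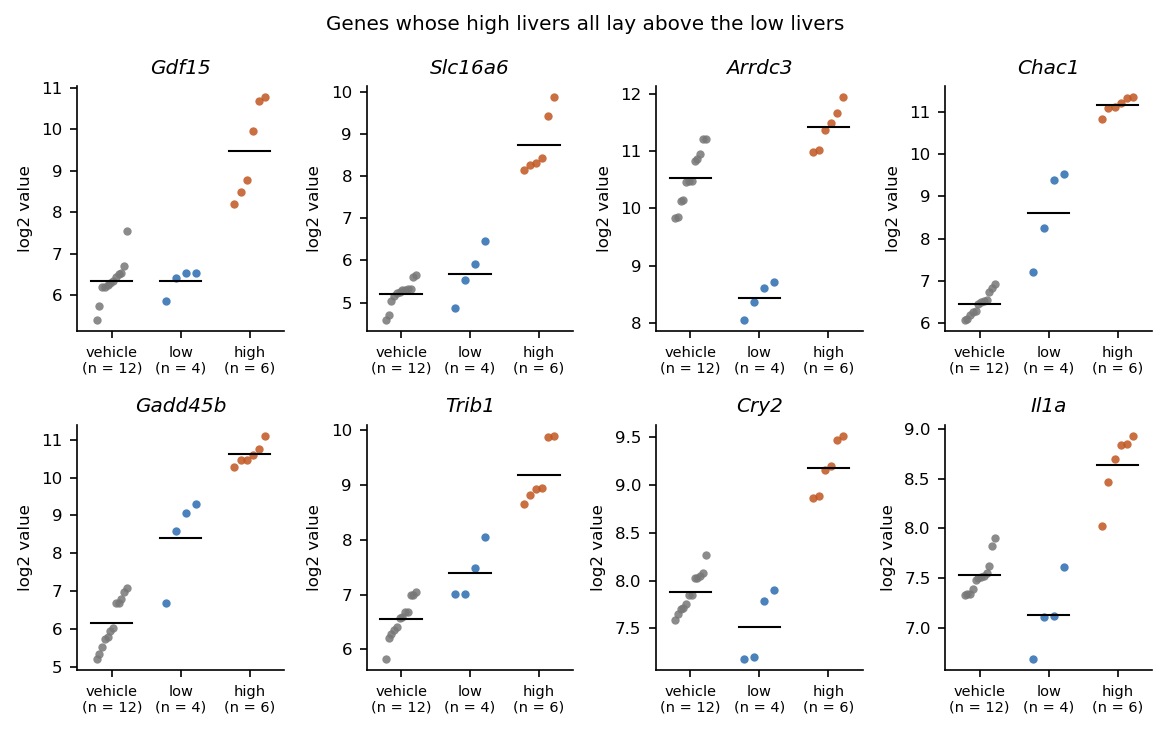
Points are livers and lines are group means, on the deposited log2 scale, for 8 genes in vehicle (n = 12), low (n = 4) and high (n = 6) livers. Gdf15 low livers lie among the vehicle livers, Chac1, Gadd45b and Trib1 low livers lie in part between vehicle and high, and Arrdc3 low livers lie below all vehicle livers.

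A further 9 of the 55 genes, transporters and metabolic enzymes not placed in the stress group, had differences of 1.12 to 3.05, and for none of these 9 were all 4 low livers above vehicle. Slc1a4 and Chac1, placed in the stress group above, had all 4 above. Slc16a6, a monocarboxylate transporter through which liver exports ketone bodies, had 5.53, 4.87, 6.46 and 5.91 in livers 17, 20, 21 and 24, 8.15 to 9.87 (median 8.37) in the high set and 4.59 to 5.65 (median 5.28) in vehicle livers, an 8.29-fold gap. Livers 21 and 24 were above the vehicle range and livers 17 and 20 inside it. Agxt, a peroxisomal aminotransferase, had 10.10, 9.45, 10.21 and 9.07 in livers 17, 20, 21 and 24 and 11.07 to 11.74 (median 11.20) in the high set against 8.50 to 9.35 (median 9.06). Etnk1, ethanolamine kinase, Sat1, which acetylates polyamines, and Stard4, a cholesterol carrier, were 3.29-fold, 2.28-fold and 2.18-fold higher. Gstm3, a glutathione transferase with close paralogs that can share probes, had 4.90 to 8.68 (median 5.73) in the high set, with livers 14 and 18 far above the other 4, and 3.47 to 4.66 in the low set. Rdh16, St8sia1 and Ppm1k were 2.40-fold, 2.86-fold and 2.33-fold higher, and St8sia1 did not pass limma. Histone genes contributed 3 members, H3f3b, H1f5 and Hist1h3b, at 1.15 to 1.48 on the log2 scale; copies of these genes are near-identical and their probes can share signal.

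The other 11 genes had differences of 1.04 to 2.97, led by Arrdc3, an arrestin-domain protein that guides receptors to lysosomes. Its log2 values were 8.05, 8.37, 8.72 and 8.61 in livers 17, 20, 21 and 24, against 9.83 to 11.21 (median 10.48) in vehicle livers and 10.98 to 11.94 (median 11.43) in the high set. All 4 low livers lay below all 12 vehicle livers, as for 0.607% of all genes, and 4 of 6 high livers lay above them, so the treated mean did not differ from vehicle beyond the spread (limma, adjusted p = 0.718). Its family members moved otherwise: Arrdc4 was above vehicle in all 10 treated livers with overlapping sets (8.45 to 9.49 low, 9.24 to 10.28 high, 6.86 to 8.16 vehicle), and Txnip overlapped throughout (8.52 to 8.90, 8.36 to 9.66 and 8.64 to 9.29). No overlap was seen for 5 genes that also had at least 3 high livers above and at least 3 low livers below every vehicle liver: Arrdc3, Il1a, Nfkb1, Nt5e and Plekha5. For Nt5e, the ectonucleotidase that makes adenosine, values were 8.49, 8.55, 8.66 and 8.83 in livers 17, 20, 21 and 24, 9.17 to 9.49 (median 9.33) in the high set and 8.66 to 8.98 (median 8.88) after vehicle. The reverse arrangement occurred in Mif4gd only. Insc, an adaptor of spindle orientation, differed from these in that all treated livers had risen, with 9.12, 8.70, 9.52 and 8.24 in livers 17, 20, 21 and 24, 10.27 to 10.76 (median 10.53) in the high set and 6.30 to 7.56 (median 6.82) in vehicle livers.

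Many genes also changed in the low livers, so the low set is not a set without response. Outside the immediate early genes, 115 genes rose at least 2-fold in limma. Low livers 17, 20, 21 and 24 lay above every vehicle liver for 95, 88, 105 and 61 of them, and the high livers for 106 to 111. In 49 of the 115 genes all 4 low livers were above vehicle, in 101 all 6 high livers were, and in 54 the sets did not overlap; since a rise can pass through the high livers alone, these counts describe the list and test nothing. Only Gdf15, Pnpla3 and Upp2 had no low liver above vehicle. Of the high livers, 6 lay above vehicle for Gdf15, 3 for Pnpla3 and 0 for Upp2. The sets overlapped for Pnpla3 and Upp2. There were 24 genes with all 10 treated livers above vehicle and overlapping sets. Slc38a2, a neutral amino acid transporter, had 11.76, 11.34, 12.02 and 11.25 in livers 17, 20, 21 and 24 and 11.92 to 12.21 (median 12.15) in the high set against 8.23 to 9.59 (median 9.17), with a difference of 0.53 between the sets beside a treated rise of 2.91 ± 0.17 (limma, adjusted p = 3.39e-11). Got1, an aspartate aminotransferase, had 11.51, 10.93, 12.01 and 11.18 in livers 17, 20, 21 and 24 and 11.36 to 11.70 (median 11.58), against 8.61 to 10.44 (median 9.27), and its highest liver was low liver 21. Cdkn1a, the cell cycle inhibitor p21, had 7.92 to 8.65 in the low and 7.92 to 8.62 in the high set, a difference of 0.05, with vehicle at 5.63 to 7.44 (median 6.94). Zbtb16, a glucocorticoid-induced transcription factor, had 8.93, 8.72, 9.02 and 8.73 in livers 17, 20, 21 and 24 and 8.76 to 9.44 (median 9.30) in the high set, against 6.51 to 8.05 (median 7.47). Ppargc1a, the coactivator PGC-1alpha, and Coq10b, a coenzyme Q-binding protein, were also raised in all 10, but their sets leaned apart, by 1.79 and 1.57, with liver 21 reaching into the high range.

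**Figure D4:**
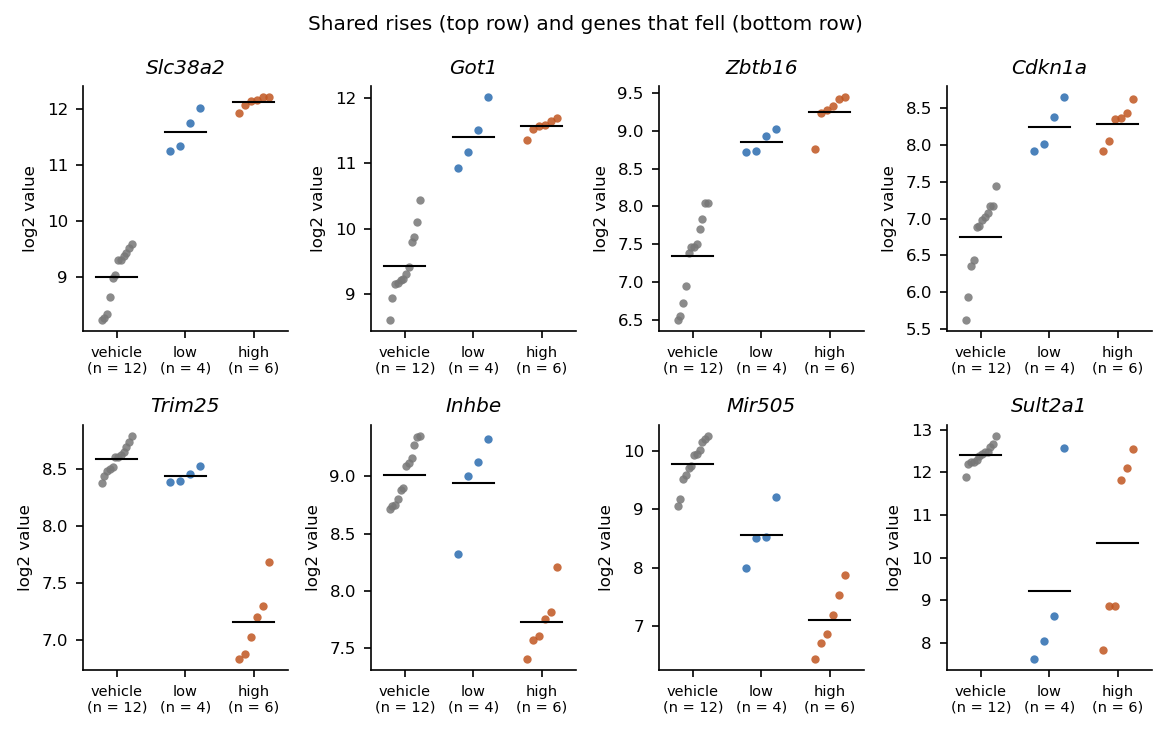
Points are livers and lines are group means, on the deposited log2 scale. In the top row the low (n = 4) and high (n = 6) livers both lie above the vehicle livers (n = 12) and overlap each other; in the bottom row Trim25 and Inhbe fall in the high livers, Mir505 falls further in the high than in the low livers, and Sult2a1 divides both sets.

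Of the 5 genes at least 2-fold lower in the high set, all fell in limma. For 4 of them all 6 high livers lay below every vehicle liver, where 1.53% of all genes did so. These counts follow in part from how the 5 were picked and test nothing. Trim25, a ubiquitin ligase that binds RNA, had 8.38, 8.39, 8.45 and 8.53 in livers 17, 20, 21 and 24, inside the vehicle range of 8.38 to 8.79 (median 8.60), and 6.84 to 7.69 (median 7.12) in the high set. The high livers were 2.43-fold lower and all below vehicle. Inhbe had 9.33, 9.12, 8.32 and 9.00 in livers 17, 20, 21 and 24, 7.40 to 8.21 (median 7.68) in the high set and 8.71 to 9.35 (median 9.00) after vehicle; liver 21 was the only low liver below the vehicle range. Rbm12b, an RNA-binding protein, had 6.57, 6.25, 6.04 and 6.61 in livers 17, 20, 21 and 24 and 4.49 to 5.69 (median 5.36) in the high set, against 6.53 to 7.17 (median 6.69). Mir122, the hepatocyte microRNA gene, had 8.08, 8.72, 8.19 and 8.34 in livers 17, 20, 21 and 24 and 6.57 to 7.81 (median 6.98) in the high set, against 7.54 to 9.46 (median 8.31), and its fall in limma (adjusted p = 0.0244) was lost without liver 18, 22 or 23, with an adjusted p of up to 0.0544.

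Mir505 had the largest difference of the 5. Its mature products are given because the gene fell in steps; they are written 5′ to 3′ from RefSeq (GRCr8, minus strand of chrX:143778784-143778803 for the 3p arm and chrX:143778818-143778840 for the 5p arm), with the seed, bases 2 to 8, in capitals.
miR-505-3p: gUCAACACuugcugguuucc
miR-505-5p: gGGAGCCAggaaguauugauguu
The Mir505 probe set had 8.51, 8.00, 8.53 and 9.22 in livers 17, 20, 21 and 24, 6.44 to 7.88 (median 7.03) in the high set and 9.06 to 10.25 (median 9.83) in vehicle livers, with the high livers 2.75-fold below the low livers and a treated fall of -2.09 ± 0.26 (limma, adjusted p = 3.06e-06). The array reads the gene's transcript from total RNA and does not tell the mature arms apart. Mir802, another microRNA gene, had 3.89, 4.43, 3.75 and 4.38 in livers 17, 20, 21 and 24 and 2.69 to 3.67 (median 3.32) in the high set, against 4.67 to 6.02 (median 5.24), and fell in limma (adjusted p = 1.01e-06).

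Smaller falls without overlap were seen for Rsrp1, an arginine- and serine-rich protein (-0.96 between the sets), Rbak (-0.93) and Fbxo9 (-0.82). Rsrp1 had 8.93, 8.99, 8.98 and 9.14 in livers 17, 20, 21 and 24 and 7.81 to 8.42 (median 8.00) in the high set, with vehicle at 9.35 to 9.63 (median 9.45), so every treated liver was below vehicle. Outside the immediate early genes, 16 genes fell at least 2-fold in limma, and in 11 of them the sets overlapped. The other 5 were lower in the high set without overlap, where 1.81% of all genes were. Since a fall can pass through the high livers alone, these counts describe the list and test nothing. Among the 11 were Angptl4, a lipase inhibitor, and Rtp3, a receptor-transporting protein, with differences of -0.35 and -0.83.

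Sult2a1 and Sult2a2, hydroxysteroid sulfotransferases of female rat liver, divided the treated livers along another line. Sult2a1 had 8.64, 7.62, 8.05 and 12.58 in livers 17, 20, 21 and 24; livers 13, 14, 16, 18, 22 and 23 had 8.86, 7.83, 12.55, 12.10, 11.82 and 8.86, and vehicle livers 11.89 to 12.85 (median 12.41). Livers 16, 18, 22 and 24 were near the vehicle level and the other 6 were far below it, whichever set they belonged to. Sult2a2 had 4.83, 3.31, 4.77 and 8.65 in livers 17, 20, 21 and 24 and 1.86 to 7.95 in the high set, against 7.77 to 9.13; the paralogs can share probes.

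Across the 40 gene lists other than immediate early genes, 4 had list means that did not overlap between the sets, all higher in the high set: the glucocorticoid-responsive, insulin/FoxO/IGF, circadian clock and integrated stress response lists. All lists were written with earlier results of these data known. Counts of their members beside the shares over all genes therefore test nothing. Glucocorticoid-responsive genes had list means of 1.47 to 1.72 above vehicle in the high livers and 0.68 to 1.19 in the low livers, where the highest vehicle liver had 0.33. Of its 19 measured members 7 were higher without overlap (1.87% of all genes were) and none lower, and 16 rose in limma (5.31% of all genes did). The 4 at least 2-fold apart (Gadd45b, Gadd45g, Igfbp1 and Sgk1) also answer to other stimuli. Other members had smaller differences. Fkbp5, a receptor co-chaperone, had 6.71 to 7.34 in the low and 6.42 to 7.40 in the high set against 5.63 to 6.34, a difference of -0.29. Tsc22d3 (GILZ) and Tat, tyrosine aminotransferase, differed by 0.43 and 0.28. Tat was without overlap, with 12.60 to 12.76 in the low and 12.91 to 13.05 in the high set. Whether glucocorticoid signalling differed between the sets was not tested.

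The insulin/FoxO/IGF list (24 members) had 6 members higher without overlap and 1 lower (Foxo4, at -0.23), where 1.87% and 1.81% of all genes were. Of the 6, all but Irs1 were at least 2-fold higher (Irs2, Foxo3, Igfbp1, Trib1 and Cited2). Its list means were 0.47 to 0.76 in the high and 0.01 to 0.24 in the low livers. The clock list (19 members) had 4 higher without overlap, again beside 1.87% of all genes, and none lower: Cry2, Noct, Per1 and Rora. Per1, a clock gene also induced by glucocorticoids and cyclic AMP, had 7.59, 7.16, 7.69 and 7.35 in livers 17, 20, 21 and 24 and 7.71 to 8.42 (median 8.24) in the high set, against 4.73 to 7.05 (median 6.12). Vehicle livers alone spanned -0.28 to 0.60 on the clock list, which covers most of both treated sets.

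The cytokine list (35 members, 7 higher without overlap) and the gluconeogenic list (17 members, 5 higher and 1, the glucagon receptor gene Gcgr, lower) leaned the same way with overlapping list means, beside the same 1.87% higher and 1.81% lower over all genes. Pck1, the gluconeogenic carboxykinase, had 11.98, 11.76, 11.97 and 11.79 in livers 17, 20, 21 and 24 and 12.04 to 12.34 (median 12.21) in the high set, against 10.10 to 11.65 (median 11.31), so all 10 treated livers were above vehicle and the sets were 0.32 apart. In the cholesterol synthesis and uptake list 16 of 19 members had a difference above 0, where 8362 of all 18123 genes did. The median of this list was 0.33 beside -0.01 over all genes. Its list means were 0.10 to 0.49 in the high and -0.31 to 0.28 in the low livers. Vehicle livers alone spanned -0.39 to 0.47 on this list, which covers the low set and most of the high set. Of its members 2 were higher without overlap, and Stard4 was the 1 member at least 2-fold apart. Among 35 genes of amino acid breakdown and the urea cycle, 2 were higher without overlap, of which Agxt was 3.04-fold higher. Of 14 complex III genes 1 had a difference above 0, with a median of -0.14 and no member without overlap. For 57 genes of complexes I, II, IV and V the median was -0.10, 8 had a difference above 0, and 2 were lower without overlap. The lists for NRF2 targets (28 genes), the unfolded protein response (26), acute-phase proteins (26) and ribosomal proteins (35) held 0 members without overlap. Over all genes 3.67% were without overlap in either direction. On the count without overlap, these 4 lists and both respiratory chain lists are near the background. Hmox1, heme oxygenase, had 8.01, 9.12, 7.26 and 6.87 in livers 17, 20, 21 and 24 and 7.29 to 8.56 (median 7.41) in the high set, against 5.68 to 7.10 (median 6.68), and its highest treated value was in low liver 20.

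**Figure D5:**
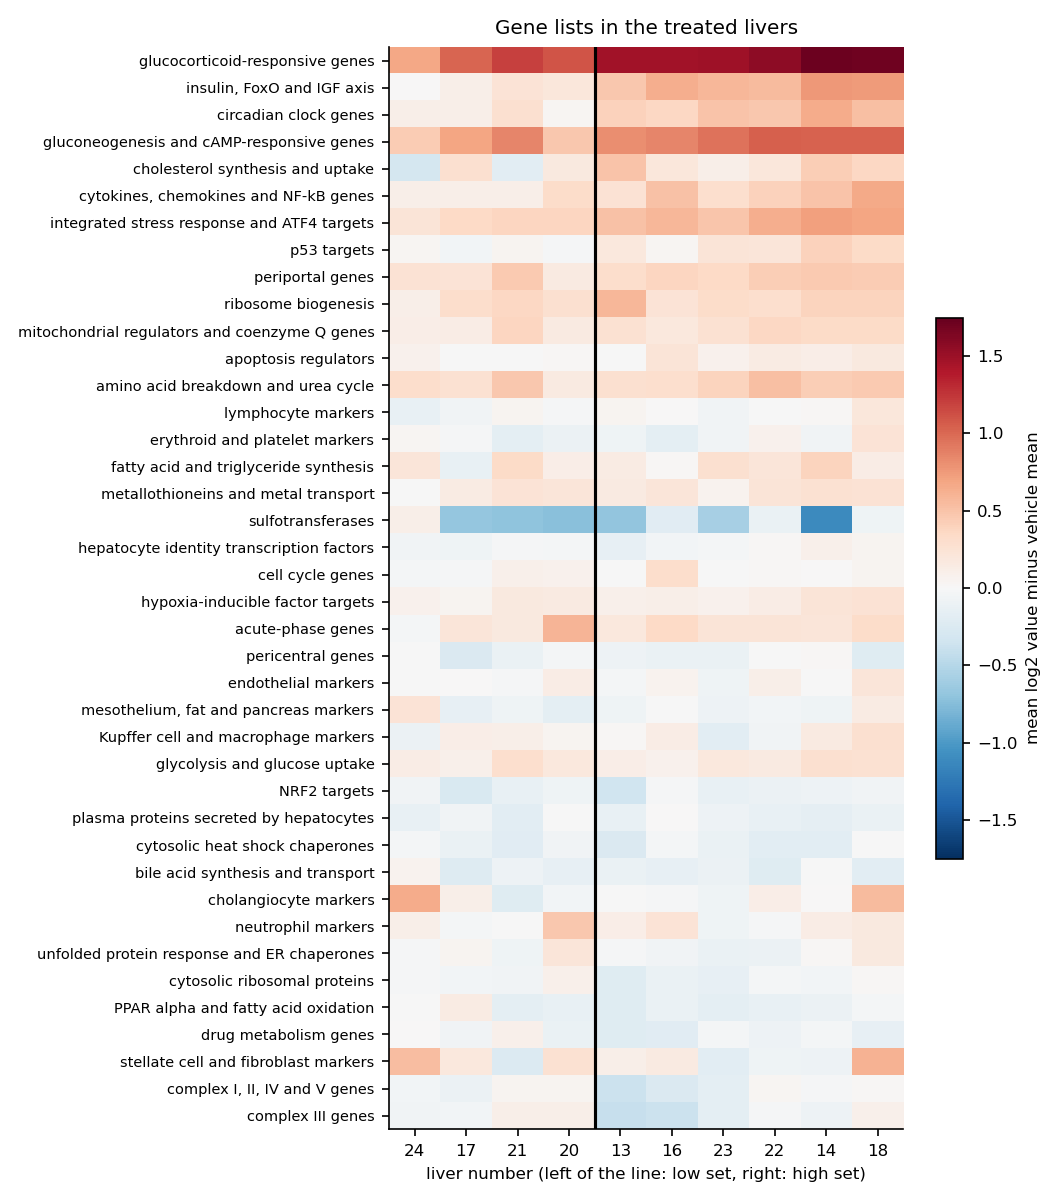
Colours give the mean over each list's members of the log2 value minus the vehicle mean, for 40 lists (rows, sorted by the difference between sets) and 10 treated livers (columns, each set in order of its immediate early gene mean). The glucocorticoid-responsive list runs from 0.68 in liver 24 to 1.72 in liver 14, whereas the complex III list, in the last row, runs from -0.40 in liver 13 to 0.10 in livers 20 and 21.

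Within the sets the livers also differed. Over the 55 genes, the mean log2 value minus vehicle was 0.64, 0.51, 0.91 and 0.23 in livers 17, 20, 21 and 24, and 1.87 to 2.46 in the high livers. Livers 18 and 14, which had the highest immediate early gene means, were also the highest for 19 and 16 of the 55 genes. Among low livers the order changed: liver 20 led in immediate early genes, whereas liver 21 was the highest for 34 of the 55 genes, and liver 24 was the lowest for 33. The labels give no batch, litter or scan information for any liver.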

How the data were processed

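The authors deposited log2 values made with RMA, per the submitters' processing notes, whose software version is not given in the sources used here. RMA normalises between arrays, so a shift common to all genes cannot be seen, and small changes near background are compressed. Values ran from 0.67 to 13.8, and precision is set by the number of arrays.

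Of 36685 probe sets, 18511 had 1 symbol, 575 several and 17599 none; 18394 were matched by Entrez identifier. Each of 18166 genes was represented by its probe set with the highest mean. The members and the 41 gene lists were chosen with earlier results of these data known, and role groups after the values were seen. High and low livers were compared by the difference of set means and by overlap, without a test; fold changes are 2 to the power of that difference. Treated and vehicle arrays were compared in limma 3.58.1 (R 4.3.3), adjusted by Benjamini-Hochberg over all genes at 0.05; both steps were checked on simulated data. Limma's p-values set the difference between treated and vehicle means against the spread between these rats, which among treated rats includes the split.

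Genes named by rule were the immediate early genes, the 15 highest and 15 lowest differences without overlap among ordinary symbols, the 3 largest in each list, the 15 largest rises and 10 largest falls in limma, and a short set including Chac1, Gdf15, Fgf21, Tat and Sult2a1; other names were added after their values were seen. Alternatives were median centring, quantile and cyclic loess normalisation, the mean of probe sets, set medians, filters at mean values of 5 or 7, all probe sets, a core immediate early list, limma's trend, robust and array weight options, and leaving out arrays. Python 3.11.15, pandas 2.3.3, numpy 2.4.6 and matplotlib 3.10.9 were used.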

Additional observations from a re-analysis of the deposited data

Results flagged for a closer look

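For 117 genes named in the text, the 10 treated livers were searched for a liver far from the others, by the ratio of its gap from the nearest liver to the whole range (Dixon's criterion); 9 genes had one, where chance gives about 1 in 20. Liver 20, a low liver, stood above the others for A2m (9.14), Asns (6.35) and Cxcr2 (5.31), and below them for Cth, a cysteine-forming enzyme (11.30). Liver 14, a high liver, stood above the others for Cxcl2 (8.03) and Trib3 (5.97) and below them for Alb, albumin (13.28). Liver 13 was above the others for Slc7a1, a cationic amino acid transporter (6.23), and liver 23 for Txnip (9.66). Without liver 14, Cxcl2 in the other high livers ran from 5.43 to 6.15, above the low livers at 4.74 to 5.22.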

How the results depend on the processing

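No called result changed direction under any alternative run. Leaving out the border livers 13 and 20 gave 617 genes higher and 614 lower without overlap. Counting only genes with a mean log2 value of at least 7 gave 160 higher, 126 lower and 33 at least 2-fold higher, and counting all probe sets gave 564, 548, 103 and, at least 2-fold lower, 33. With the core immediate early list the gap between the sets was 0.94. Leaving out each treated liver in turn gave 409 to 573 genes higher, 410 to 589 lower, 49 to 76 at least 2-fold higher and 5 to 8 at least 2-fold lower. Fewer livers leave less chance of overlap by construction; removal of liver 17, 21, 22 or 24 raised a count by more than 1.5 times. Differences of all 41 list means between the sets moved by less than the spread between livers. Among named genes, the difference of Jun was 1.84 with the mean of its probe sets, and that of Alb, near 0 throughout, was 0.04 with cyclic loess. The number of genes that passed limma was 2061 to 2385 under other normalisations, filters and weights. The limma calls of Cth, Cxcl2, Gcgr, Mcm4, Mir122, Mlec, Onecut1, Sesn1, Tfr2 and Upp2 were lost in 1 to 18 settings, with adjusted p of up to 0.0949. No paired analysis was possible because the groups share no replicate numbers and the labels name no pairing. Dim genes near the background give compressed differences, and 6 against 4 livers limit every value.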

Other observations

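Some patterns crossed the sets. Liver 20, a low liver, had the highest treated value of A2m, the acute-phase alpha-2-macroglobulin (9.14, against 4.93 to 6.70 in vehicle livers), Lcn2, lipocalin 2 (7.11), Hmox1 (9.12) and the neutrophil receptor gene Cxcr2 (5.31). Its list mean was 0.59 above vehicle for acute-phase genes and 0.47 for neutrophil markers, where the highest vehicle livers had 0.19 and 0.17. The neutrophil genes S100a8, S100a9, Mpo and Csf3r together averaged 3.72 to 4.22 in the low livers and 3.74 to 4.14 in the vehicle livers. All 4 lay below the array median, where small changes are compressed. Cxcr2 was dim too, with means of 4.01, 4.19 and 3.73 in high, low and vehicle livers, below array medians of 4.73 to 4.85.

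Livers 18 (high) and 24 (low) shared high values of the connective tissue genes Dcn and Lum and of the fat gene Adipoq. Dcn, the matrix proteoglycan decorin, was 9.36 and 8.86 in them, Lum, lumican, 6.06 and 5.99, and Adipoq, adiponectin, 5.70 and 6.49, each above the highest vehicle liver. Plin1, another fat gene, was high in liver 24 (5.73) but not in liver 18 (4.81), with 4.61 to 5.24 in vehicle livers. Low liver 21 (5.31) also lay above the vehicle livers for Plin1. Not every connective tissue gene set livers 18 and 24 apart. The stellate cell marker Reln was 7.70 and 7.57 in them, inside the vehicle range of 7.41 to 7.87. Col1a1, a collagen gene, was 6.50 and 6.61 in them, and 6.61 and 6.50 in livers 13 and 16. List means for stellate cell and fibroblast markers were 0.61 and 0.54 in livers 18 and 24, with vehicle livers up to 0.34. For cholangiocyte markers they were 0.56 and 0.65, with vehicle livers up to 0.31. The mesothelium, fat and pancreas list had 0.14 and 0.23, with vehicle livers up to 0.19. The immediate early gene means of livers 18 and 24 were the highest and the lowest of the treated livers, at 1.59 and 0.12.

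Respiratory chain transcripts were lower in livers 13, 16 and 23 of the high set, where complex III genes averaged -0.40, -0.38 and -0.18 against vehicle. The other high livers ran from -0.09 to 0.09 and the vehicle livers from -0.43 to 0.27. Complex I, II, IV and V genes averaged -0.38, -0.26 and -0.18 in livers 13, 16 and 23, with vehicle livers from -0.21 to 0.18. The pattern was not particular to the respiratory chain. Cytosolic ribosomal proteins were also lowest in these livers among treated livers, at -0.21, -0.12 and -0.14, with vehicle livers from -0.15 to 0.12.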
